A study of Mus musculus with 2 samples.

Results

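Uroplakin-high cells were a set of 734 single cells from differentiated mouse urothelial organoids, out of 4896 kept cells of that library and 11714 kept cells in the whole series. They were chosen by their uroplakin transcripts: for each cell, the summed unique molecular identifiers (UMIs, one per captured RNA molecule) of Upk1a, Upk1b, Upk2, Upk3a and Upk3b were expressed per 10000 UMIs of the cell, and the highest 15% of cells were taken. A barcode was kept when more than 800 genes were detected in it and mitochondrial genes took no more than 12% of its UMIs. The lowest scores inside the set were 18.96, 18.98 and 18.99, and the highest scores outside it were 18.93, 18.92 and 18.90, so the boundary cut through a continuous range. The score used these 5 genes in these cells, and every other gene was counted in the same cells, so all levels below describe 1 library and no test was made between the set and the remaining D cells.

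The organoids came from normal urothelium of wild-type C57BL/6 mice 8 to 10 weeks old. Proliferative organoids (P) were held in complete medium with WNT3A, RSPO1, EGF, Noggin and LY2157299, a TGF-β receptor inhibitor, and differentiated organoids (D) were moved to medium without these 5 factors. Each condition was 1 library from 10000 loaded cells, read by droplet-based 3′ single-cell sequencing, so no difference here has a replicate check and the number of donor animals per library was not given in the sources used here. All intervals are exact 95% intervals and cover counting error only.

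The urothelium is the layered epithelium of the bladder, with basal cells on the basement membrane, intermediate cells above them and umbrella cells facing the urine. Uroplakins are membrane proteins made in the upper layers. The tetraspanins UPK1A and UPK1B pair with UPK2 and with UPK3A or UPK3B, leave the endoplasmic reticulum as pairs, and travel in vesicles to the apical surface, where they form the rigid plaques of the bladder barrier. KRT20 is the usual keratin marker of the most mature umbrella cells, and KRT5 and KRT14 mark basal cells.

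The name luminal was checked against markers. Krt23, the marker of the set that the score did not use, was detected in 6.00% of uroplakin-high cells (43 of 717, interval 4.37 to 7.99%) and in 1.34% of the remaining D cells, when each cell was thinned to 2000 UMIs and shallower cells were left out. By the clustering given below, Krt23 had 50.2 CPM in the 428 uroplakin-high cells inside 1 cluster and 8.08 CPM in the 306 outside it. The 232 other cells of that cluster had 98.1 CPM, so Krt23 followed the cluster more than the score. Krt20 was detected in 0 of 717 thinned cells, which allows a share of up to 0.418%, and in 0.136% of the set before thinning. Krt5 was still detected in 83.0% of the thinned uroplakin-high cells. These cells are therefore called uroplakin-high rather than luminal or umbrella cells.

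The upstream sequence of 3 genes is shown because they had the largest ratios between the uroplakin-high cells and the remaining D cells among the genes whose RefSeq window held no other annotated start. Each is the 250 bases before the RefSeq start on build GRCm38.p6, 5′ to 3′ on the strand of the gene. Capitals mark matches to any motif searched, on either strand: the GC box with letters GGGCGG, the box known as CCAAT, the GATA-factor motif with letters AGATAA, the GRHL motif with letters AACCGGTT, the FOXA motif with letters TGTTTAC, the nuclear receptor motif with letters AGGTCA, the AP-1 motif with letters TGANTCA and the TEAD motif with letters GGAATG. These motifs do not contain each other.
Upk3a, chr15:85016891-85017140, plus strand: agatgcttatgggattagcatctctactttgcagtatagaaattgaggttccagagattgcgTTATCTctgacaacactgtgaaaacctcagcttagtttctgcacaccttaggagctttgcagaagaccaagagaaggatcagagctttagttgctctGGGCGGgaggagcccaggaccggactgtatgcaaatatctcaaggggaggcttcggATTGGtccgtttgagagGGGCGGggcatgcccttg
Upk3b, chr5:136038246-136038495, plus strand: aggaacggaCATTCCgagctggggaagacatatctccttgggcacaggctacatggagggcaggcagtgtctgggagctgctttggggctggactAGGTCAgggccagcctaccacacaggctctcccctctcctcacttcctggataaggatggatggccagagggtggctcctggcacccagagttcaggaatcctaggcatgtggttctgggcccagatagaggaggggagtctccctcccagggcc
Ly6g6c, chr17:35067075-35067324, plus strand: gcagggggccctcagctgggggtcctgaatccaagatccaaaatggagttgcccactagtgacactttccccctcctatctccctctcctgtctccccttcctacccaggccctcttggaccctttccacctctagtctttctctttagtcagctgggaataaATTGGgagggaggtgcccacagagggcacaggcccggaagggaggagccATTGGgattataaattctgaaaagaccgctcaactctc

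Upk3a held 2 GC boxes, a reversed CCAAT and a reversed GATA match. Upk3b held 1 AGGTCA match and a reversed TEAD match, with none of the motifs found in Upk3a. Ly6g6c held 2 reversed CCAAT matches. Over the 32851 RefSeq entries of the same length, 32.7% held GGGCGG, 33.9% CCAAT, 14.0% AGGTCA, 12.6% GGAATG and 9.99% AGATAA. Of the 30 genes looked up, which were the 5 score genes and the 25 genes with the largest ratios, 18 had an entry. Of these, 10 were searched, and none of the 10 held AACCGGTT or TGTTTAC, which occurred in 0.116% and 3.17% of all entries. A match describes letters only.

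Upk3a and Upk3b had the largest ratios of the score genes, which the score itself used. The summed level, in counts per 1000000 UMIs (CPM), of Upk3a was 1692 CPM against 33.0 CPM in the remaining 4162 D cells (log2 ratio 5.68, 5.56 to 5.81), and the set held 6338 of its UMIs (92.1%) and the other cells 546. Upk3b followed with 64.9 CPM against 3.20 CPM (log2 ratio 4.34, 3.91 to 4.80). Both encode partners of UPK1B in the uroplakin pairs. Upk3a lies at chr15:85017141-85022547 on the plus strand and Upk3b at chr5:136038496-136046487 on the plus strand of GRCm38.

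The other 3 score genes were spread more widely. Upk1b reached 1355 CPM against 156 CPM (log2 ratio 3.12, 3.05 to 3.19). Upk1a reached 1443 CPM against 258 CPM (log2 ratio 2.48, 2.43 to 2.54), with 55.8% of its UMIs in the set. Upk2, the partner of Upk1a, had 109 CPM against 21.1 CPM (log2 ratio 2.37, 2.16 to 2.58). Upk1b lies at chr16:38773184-38800328, Upk1a at chr7:30603092-30612847 and Upk2 at chr9:44452715-44454976, all on the minus strand. The Upk3b-like gene Upk3bl, which the score left out, was not higher in the set, at 59.8 CPM against 80.6 CPM (log2 ratio -0.43, -0.64 to -0.22).

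All 734 cells held at least 1 of the score genes by construction, and most held several. Upk1a was present in 716 of them, Upk1b in 693, Upk3a in 487, Upk2 in 261 and Upk3b in 170. At least 3 of the 5 genes were detected together in 547 cells (74.5%), all 5 in 77 and only 1 in 21. The number of uroplakin UMIs per cell ran from 3 to 164, with a median of 16, and 28 cells entered with at most 5. A single cell held up to 100 UMIs of Upk3a and up to 56 of Upk1a.

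The remaining D cells were not free of uroplakins: 2115 of 4162 (50.8%) held at least 1 UMI, and 270 (6.49%) held at least 3 of the 5 genes. Their mix differed from that of the set, in 3′ UMIs, which count molecules and do not grow with transcript length. Upk3a made up 6.99% of uroplakin UMIs in the remaining cells (interval 6.43 to 7.58%) and 36.3% in the set (35.6 to 37.0%). Upk3a UMIs per Upk1a UMI were 0.128 in the remaining cells and 1.17 in the set. Both genes were in the score, so cells rich in Upk3a were placed in the set by the rule. With Upk3a left out of the score, an alternative chosen after seeing the data, its share was 16.6% in the remaining cells and 32.6% in the 734 cells then chosen (15.9 to 17.5% and 31.9 to 33.3%), and the ratios were 0.345 and 0.981.

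**Figure D1:**
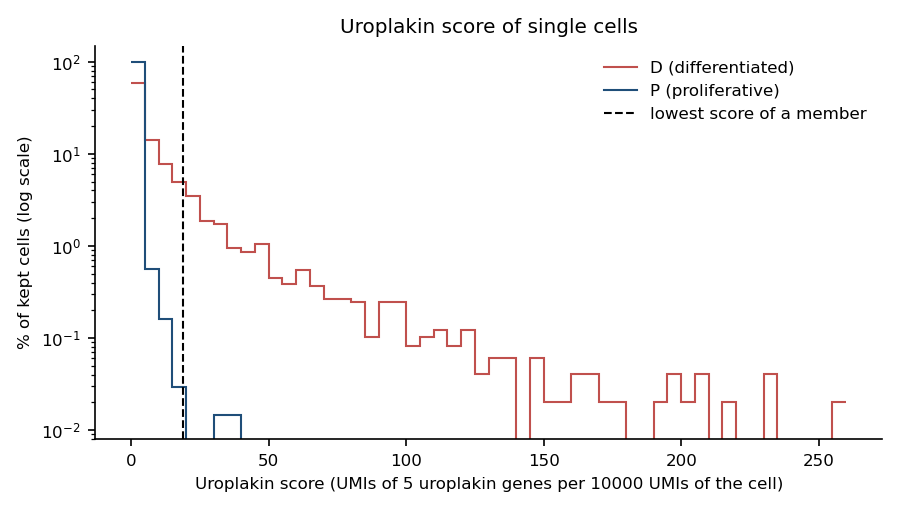
Percentage of kept cells (log scale) by uroplakin score in steps of 5, for D (red) and P (blue), with the lowest score of a uroplakin-high cell as a dashed line. D runs in a single tail to 258 with no gap at the line, while P ends at 35.9 with 2 cells past it.

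The score was divided into 5 bands to see whether genes followed it in steps. The bands were 2047 D cells without a uroplakin UMI, the lower (1058) and upper (1057) parts of the other non-members at their median score, and the lower and upper 367 uroplakin-high cells. Upk3a made up 6.20% of uroplakin UMIs in the lower part of the non-members and 7.23% in the upper part. It made up 16.5% in the lower uroplakin-high band and 43.6% in the upper one. Upk1a made up 54.6, 54.8, 45.2 and 25.7% in the same order. These bands were cut on a score that held Upk3a itself. In bands cut the same way on the other 4 genes, Upk3a made up 11.7, 16.5, 23.5 and 36.3%, without a step at the boundary.

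Leaving each uroplakin out of the score in turn gave a reading of that gene that did not use it. With Upk3a left out, 643 of the 734 cells (87.6%) were chosen again, and the cells chosen on the other 4 genes held 79.4% of all Upk3a UMIs, at 1480 CPM against 85.2 CPM (log2 ratio 4.12, 4.03 to 4.20). With Upk1a left out, 610 cells were chosen again and the Upk1a ratio was 2.05 on the log2 scale. The corresponding log2 ratios were 2.65 for Upk1b, 2.21 for Upk2 and 4.12 for Upk3b. Each uroplakin was thus higher in cells picked by the other 4.

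At equal depth, Upk1a was detected in 91.4% of uroplakin-high cells (interval 89.1 to 93.3%), in 28.1% of the remaining D cells and in 1.65% of P cells. Upk3a was detected in 58.7% of the set (55.0 to 62.3%), 4.08% of the remaining D cells and 0.0298% of P cells. Without thinning the 3 shares of Upk3a were 66.3, 7.18 and 0.0293%. In the D cluster with the least uroplakin, which gives the level that free RNA could reach, thinned cells showed Upk1a in 4.37% and Upk3a in 1.64%. Median depths were 3998.5 UMIs in the set, 3095 in the remaining D cells and 2678 in that cluster.

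**Figure D2:**
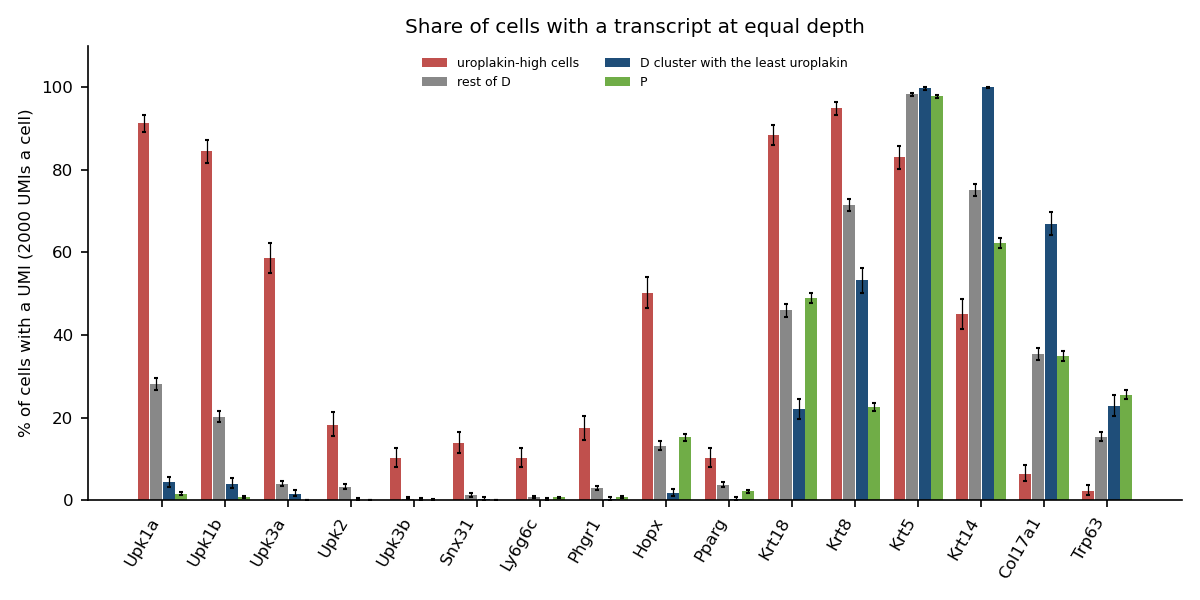
Percentage of cells with at least 1 UMI after thinning to 2000 UMIs, by gene, in uroplakin-high cells (717), the remaining D cells (3820), the D cluster with the least uroplakin (1098) and P (6716), with exact binomial 95% intervals. Upk1a reaches 91.4% and Upk3a 58.7% of uroplakin-high cells, and Krt14 is at 100% in the cluster with the least uroplakin and 45.1% in uroplakin-high cells.

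Among the 9398 genes with at least 100 UMIs over the kept D cells, 201 were at least 2-fold higher in the set (2.14%) and 435 at least 2-fold lower (4.63%). The 201 included the 5 score genes. The median log2 ratio of all 9398 genes was -0.09. The set was deeper than the other cells, with a median of 1565.5 against 1315 genes, a mitochondrial share of 7.75 against 6.56% and a ribosomal protein share of 18.4 against 22.2%; the part of these in the gene differences was not tested.

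**Figure D3:**
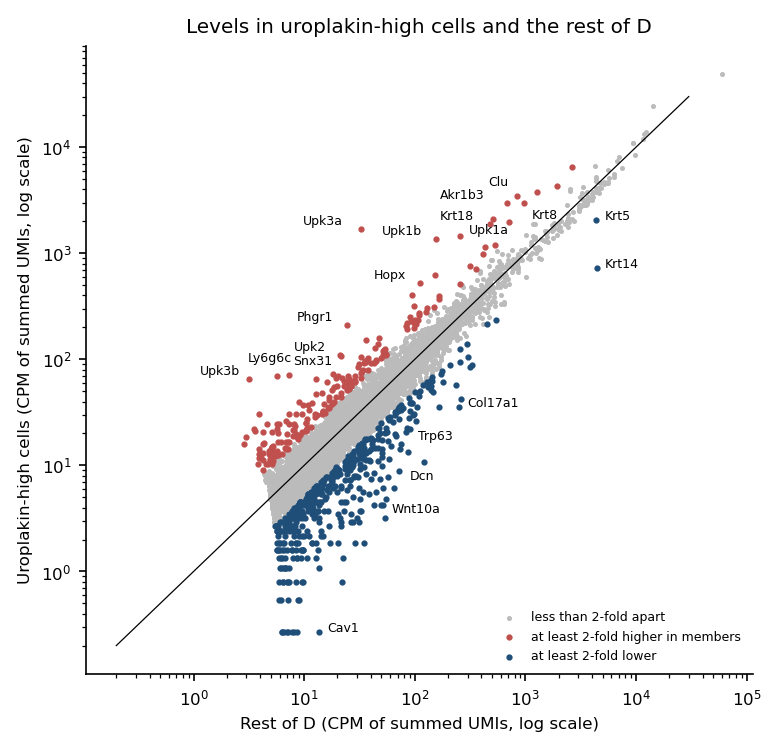
CPM of summed UMIs in uroplakin-high cells against the remaining D cells (both log scales), 1 point per gene with at least 100 UMIs, with the line of equality. Red points (201) are at least 2-fold higher and blue points (435) at least 2-fold lower in uroplakin-high cells, and Upk3a lies farthest above the line at 1692 against 33.0 CPM.

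Beyond the uroplakins, the genes with the largest ratios included surface and trafficking proteins. Ly6g6c, a Ly6-family surface protein, had 69.2 CPM against 5.68 CPM (log2 ratio 3.61, 3.26 to 3.96). Snx31, a sorting nexin that binds uroplakins on their way to degradation, had 70.8 CPM against 7.31 CPM (log2 ratio 3.28, 2.96 to 3.60). Snx31 was higher in each band than in the one before, at 0.807, 4.97, 17.0, 40.7 and 101 CPM from the cells without uroplakin to the upper uroplakin-high band.

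Phgr1, a small protein of gut epithelium, had 209 CPM against 24.2 CPM (log2 ratio 3.11, 2.93 to 3.28), and Akr1b3, the aldose reductase that makes sorbitol from glucose, had 2987 CPM against 678 CPM (log2 ratio 2.14, 2.10 to 2.18). The sodium bicarbonate cotransporter Slc4a4 had 107 CPM against 21.6 CPM and the flavin monooxygenase Fmo5 402 CPM against 94.1 CPM. Clu, a secreted chaperone, had 3431 CPM against 848 CPM (log2 ratio 2.02, 1.98 to 2.05). After thinning, Akr1b3 was detected in 93.2% of uroplakin-high cells, 49.4% of the remaining D cells and 23.4% of the cluster with the least uroplakin, and Clu in 84.2, 48.5 and 64.2%. Fmo5 was detected in 38.5% of uroplakin-high cells, Slc4a4 in 18.7% and Phgr1 in 17.4%, against 12.1, 3.32 and 2.98% of the remaining D cells and 2.37, 1.28 and 0.273% of that cluster.

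Several genes of this group had low counts. The tissue plasminogen activator Plat had 70 UMIs in the set and 49 outside it, the collectin Sftpd 92 and 76, and the ubiquitin-like modifier Ubd 59 and 47. The sphingosine-1-phosphate transporter Spns2 had 78 and 70, and the serine protease Prss27 242 and 212. Their log2 ratios lay between 2.30 and 2.66. The tubulins Tubb2a (log2 ratio 2.003, 1.76 to 2.24) and Tubb2b (log2 ratio 2.54, 2.04 to 3.05) were also higher, but are near-identical copies whose reads can be split between them.

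One gene of this group rested on a single cell. Reg1, a secreted regenerating-family lectin, had 83 UMIs in the set but in 5 cells only, and 1 of them held 57. Its log2 ratio was 2.66 with that cell and 0.99 without it. With the top 10% of cells in place of 15%, it was -1.69. Its level thus describes a few cells and not the set as a whole.

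The apical transport machinery for uroplakin vesicles was higher only in part. Of 27 listed genes of vesicle traffic, 4 were at least 2-fold higher and 1 lower, with a median log2 ratio of 0.16 beside -0.10 over all genes with at least 20 UMIs, of which 3.20% were at least 2-fold higher and 8.26% lower. The 4 were Snx31, the raft proteolipid Mal at 1139 CPM against 434 CPM (log2 ratio 1.39, 1.34 to 1.45), its relative Mal2 (log2 ratio 1.14, 1.03 to 1.25) and the motor Myo5b (log2 ratio 1.13, 0.81 to 1.45). Rab27b, a GTPase of uroplakin vesicle exocytosis, had 134 CPM against 78.6 CPM (log2 ratio 0.77, 0.62 to 0.92). Rab11a (log2 ratio 0.57, 0.48 to 0.66) and its effector Rab11fip1 (log2 ratio 0.59, 0.41 to 0.77) were 1.5-fold higher, while the SNARE proteins Vamp7, Vamp2, Snap23 and Stx3 lay between -0.09 and 0.19 on the log2 scale. The t-SNARE Stx2 was the gene past 2-fold in the lower direction, with 4 UMIs in the set and 79 outside it.

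Keratins of simple epithelia had the highest list median after the uroplakins. Of 5 genes with enough UMIs, 3 were at least 2-fold higher (60%, beside 3.20% of all genes) and none lower, with a median log2 ratio of 1.64. Krt18 had 1875 CPM against 477 CPM (log2 ratio 1.97, 1.93 to 2.02), its partner Krt8 3002 CPM against 962 CPM (log2 ratio 1.64, 1.61 to 1.68), and Krt23 30.7 CPM against 9.48 CPM (log2 ratio 1.70, 1.34 to 2.05). Krt19 (log2 ratio 0.62, 0.60 to 0.64) and Krt7 (log2 ratio 0.08, 0.04 to 0.12) were not past 2-fold.

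Krt18 and Krt8 also followed the score outside the set, and differed by cluster as well, as given with the clusters below. Krt18 had 228, 429.6, 811, 1301 and 2446 CPM across the 5 bands, and Krt8 had 600.4, 917, 1423, 2324 and 3675 CPM. Krt7 by contrast was nearly level, at 1675, 1483, 1391, 1493 and 1729.7 CPM. Most listed suprabasal keratins of stratified epithelia went the other way. Of 8, 5 were at least 2-fold lower (62.5%, beside 8.26% of all genes) and none higher, with Krt1 at 21 UMIs in the set and 738 outside. Their median log2 ratio was -1.45, and came as near to 0 as -0.92 in alternative settings. The exception in direction was Krt4 at 1891 CPM against 1211 CPM (log2 ratio 0.64, 0.60 to 0.68). With Krt4 included, the summed level of the list was higher in the set, at 2179 CPM against 1679 CPM.

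**Figure D4:**
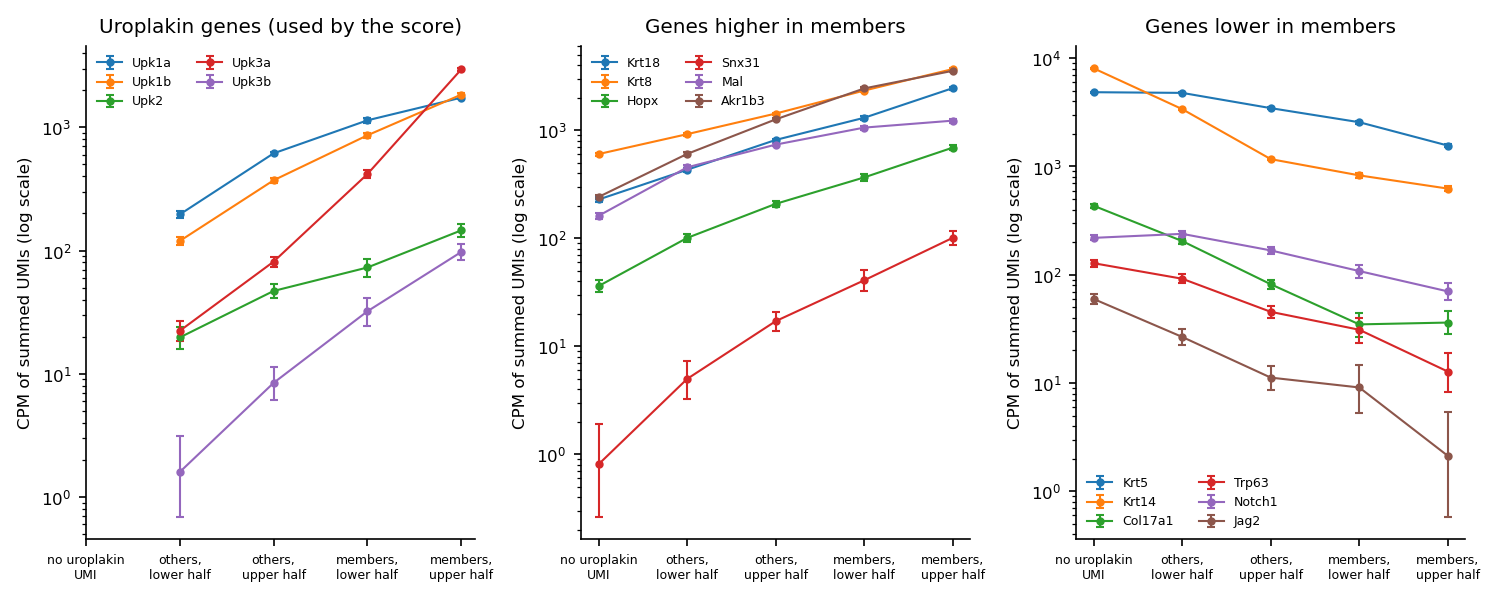
CPM of summed UMIs (log scale) in 5 bands of the uroplakin score, with exact Poisson 95% intervals; a gene at 0 UMIs in a band has no point. Upk3a is below Upk1a and Upk1b in the lower band of uroplakin-high cells and above both in the upper one, Snx31 goes from 0.807 to 101 CPM, and Krt14 from 8056 to 625 CPM.

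Basal-layer genes were lower in the set. Of 14 listed genes, 10 were at least 2-fold lower (71.4%, beside 8.26% of all genes), none was higher, and the median log2 ratio was -1.45. Col17a1, a collagen of hemidesmosomes, had 35.5 CPM against 251 CPM (log2 ratio -2.82, -3.08 to -2.57). Krt14 had 726 CPM against 4417 CPM (log2 ratio -2.60, -2.66 to -2.55), Krt5 2060.5 CPM against 4382 CPM (log2 ratio -1.09, -1.12 to -1.05) and the basal transcription factor Trp63 21.9 CPM against 90.4 CPM (log2 ratio -2.05, -2.38 to -1.72). The laminin chains Lama3 (-1.70) and Lamb3 (-1.69) and the integrins Itga6 (-1.46) and Itgb4 (-1.29) that anchor basal cells were also past 2-fold, as log2 ratios. Krt15 (log2 ratio -0.24, -0.26 to -0.22) and Cd44 (log2 ratio -0.39, -0.57 to -0.22) were not.

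The basal transcripts that remained in the set were not in the mix seen elsewhere. The set held 7716 Krt5 and 2719 Krt14 UMIs, or 2.84 Krt5 UMIs per Krt14 UMI. The remaining D cells held 72564 and 73148, or 0.992. They included most of the cluster with the least uroplakin, where Krt14 was detected in 100% of thinned cells. In P, Krt5 was detected in 97.7% of thinned cells and Krt14 in 62.3%. A mix leaning to Krt5 is thus not shown to be particular to the set. Inside the smallest cluster described below, uroplakin-high cells held 2835 Krt5 and 1447 Krt14 UMIs, and the other cells 2756 and 2007. Uroplakin-high cells outside that cluster held 4881 and 1272. The part of free RNA in these counts was not tested.

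The contractile list had a median of -1.51, with 8 of 12 genes at least 2-fold lower (66.7%, beside 8.26% of all genes) and none higher. It also held Cav1, Cyr61 (log2 ratio -2.35), Ctgf (-0.19) and Thbs1 (0.25), which are not genes of the contractile apparatus. Of the 12, 2 held no UMI in the set, and with these at the bound of 3 counts the median was -1.29. Acta2, smooth muscle actin, had 16 UMIs in the set and 821 outside it. Myl9, a myosin light chain, had 0 and 92. Caveolin Cav1 had 1 UMI in the set and 225 outside, the lowest ratio of all ranked genes (log2 ratio -5.67, -10.98 to -3.18).

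Others among the 15 lowest were the chemokine Cxcl12 with 3 and 361 UMIs, the matrix protein Tgfbi with 1 and 142, and the metalloproteinase inhibitor Timp3 with 12 and 890. Smoc2, a matricellular protein, had 7 and 482, and tenascin Tnc 2 and 149. All 6 genes named here were ranked among the 15 lowest, and each had at most 12 UMIs in the set. The proliferation list had a median of -1.25, or -1.005 with the gene without UMIs at its bound. Mki67 had 5 UMIs in the set and 83 outside, and Top2a 6 and 94. In alternative settings their log2 ratios came as near to 0 as -0.86 and -0.64.

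**Figure D5:**
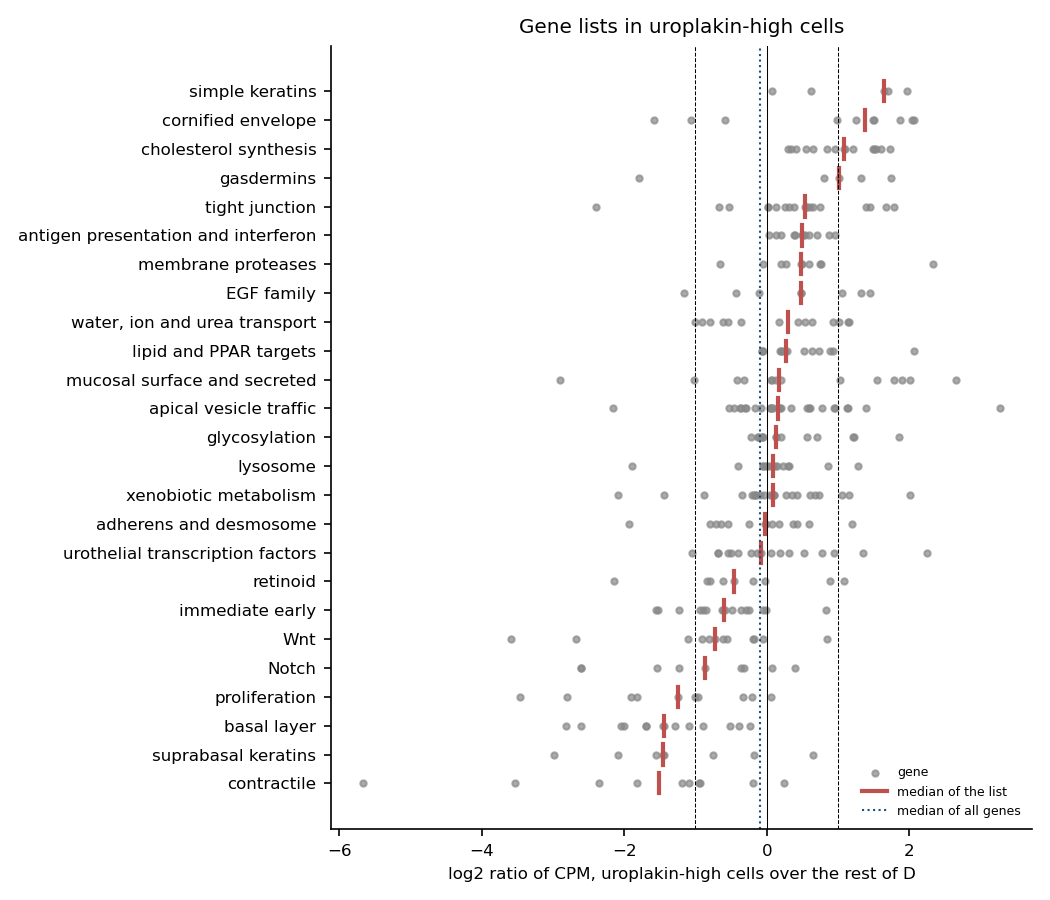
Log2 ratio of CPM (uroplakin-high cells over the remaining D cells) for each gene of 25 lists with at least 20 UMIs (grey points), with list medians in red, the median of all genes dotted (-0.10) and 2-fold limits dashed; 4 genes with no UMI in the set are not drawn. Simple keratins (1.64), cornified envelope (1.37), cholesterol synthesis (1.08) and gasdermins (1.02) lie highest, and the contractile list (-1.51, or -1.29 with its 2 genes without UMIs at their bound) lowest.

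Genes of the epithelial surface were higher in part. In the cornified envelope list, whose products stiffen the cell periphery of stratified epithelia, 6 of 10 genes were at least 2-fold higher and 2 lower. These were 60 and 20% of the list, beside 3.20 and 8.26% of all genes. Sprr1a had 2123 CPM against 508 CPM (log2 ratio 2.06, 2.02 to 2.11) and involucrin, Ivl, 393 CPM against 164 CPM (log2 ratio 1.26, 1.17 to 1.35). The Sprr2 genes Sprr2a1, Sprr2a2, Sprr2a3 and Sprr2b had log2 ratios between 1.49 and 2.04, but are near-identical copies whose reads can be shared. Loricrin, Lor, was not higher (log2 ratio -0.59, -1.18 to -0.04). The 2 lower genes were Sprr2f (log2 ratio -1.58) and Tgm1 (-1.06), each within 2-fold in 4 alternative settings.

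Of 19 tight junction genes, 16 were above 0, with 4 at least 2-fold higher, 1 lower and a median of 0.54. The shares past 2-fold were 21.1% higher and 5.26% lower, beside 3.20 and 8.26% of all genes. Among the claudins, which set the permeability of the junction, Cldn23 had 69.7 CPM against 20.3 CPM (log2 ratio 1.78, 1.54 to 2.02), Cldn3 105 CPM against 32.8 CPM (log2 ratio 1.68, 1.49 to 1.87) and Cldn8 10.4 CPM against 3.80 CPM (log2 ratio 1.45, 0.84 to 2.05). Cldn4 (log2 ratio 0.55, 0.44 to 0.66), Cldn7 (log2 ratio 0.54, 0.45 to 0.63) and occludin, Ocln (log2 ratio 0.61, 0.33 to 0.88), were higher by less than 2-fold. Cldn1 had 4 UMIs in the set and 93 outside it. The adherens junction and desmosome list had a median of -0.02, with E-cadherin, Cdh1, at 362 CPM against 280.4 CPM and desmoplakin, Dsp, at 248 CPM against 389 CPM.

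The mucosal surface list was divided: 6 of 14 genes were at least 2-fold higher, Reg1 included, and 2 lower. These were 42.9 and 14.3% of the list, beside 3.20 and 8.26% of all genes. The 2 lower genes were Slpi (log2 ratio -2.90) and Lypd2 (-1.03), the latter reversed in 2 of 15 alternative settings. Psca, a GPI-anchored surface protein, had 3758 CPM against 1286 CPM (log2 ratio 1.55, 1.52 to 1.58) and went from 421 to 3976 CPM along the bands. Pigr, the receptor that carries immunoglobulin A across epithelia, had 37.1 CPM against 10.8 CPM (log2 ratio 1.78, 1.45 to 2.11), and the lipopolysaccharide co-receptor Cd14 111 CPM against 54.5 CPM (log2 ratio 1.03, 0.86 to 1.20). Ly6d (0.13), Ly6e (0.06) and Ly6a (0.07) differed little on the log2 scale. Of 5 gasdermins, pore-forming proteins, 3 were at least 2-fold higher and 1 lower (60 and 20%, beside 3.20 and 8.26% of all genes). Gsdmc2 (1.02), Gsdmc3 (1.32) and Gsdmc4 (1.74) were past 2-fold higher, as paralogs that can share reads. Gsdme (0.80) was within 2-fold. Gsdmd (-1.79) was past 2-fold lower, but within 2-fold in 3 of 15 alternative settings. Gsdmc2 and Cd14 were each under 2-fold in 5 of 15 alternative settings, with lowest log2 ratios of 0.91 and 0.87.

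Cholesterol synthesis had the highest median of the metabolic lists (lipid, retinoid and xenobiotic genes were the others). All 15 genes of cholesterol synthesis and its control were above 0, and 8 were at least 2-fold higher (53.3%, beside 3.20% of all genes). The median log2 ratio was 1.08, with a range of 0.83 to 1.33 over 15 alternative settings. Mvd had 24.3 CPM against 7.31 CPM (log2 ratio 1.73, 1.33 to 2.14), Fdps 66.2 CPM against 21.9 CPM (log2 ratio 1.60, 1.36 to 1.84) and Idi1 70.2 CPM against 24.8 CPM (log2 ratio 1.50, 1.27 to 1.73), which are successive enzymes of the mevalonate route. Idi1 had 17.9, 23.5, 34.1, 56.3 and 84.1 CPM over the bands.

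Of 14 lipid genes, 1 was at least 2-fold higher (7.14%, beside 3.20% of all genes) and none lower (beside 8.26%). It was the fatty acid carrier Fabp5, at 152 CPM against 36.2 CPM (log2 ratio 2.07, 1.90 to 2.24). Of 24 genes of xenobiotic metabolism, 3 were at least 2-fold higher (12.5%, beside 3.20% of all genes): the reductase Akr1b8 (log2 ratio 2.01, 1.93 to 2.09), the glutathione transferase Gstm1 (log2 ratio 1.15, 1.13 to 1.18) and the alcohol dehydrogenase Adh1 (log2 ratio 1.06, 0.88 to 1.24). Cyp1b1 (log2 ratio -1.45, -2.18 to -0.79) and Ugt1a6a (log2 ratio -2.08, -3.32 to -1.07) were at least 2-fold lower, which is 8.33% of the list beside 8.26% of all genes. Of 14 transport genes, the urea transporter Slc14a1 (log2 ratio 1.01, 0.62 to 1.38), the sodium channel subunit Scnn1a (log2 ratio 1.16, 0.62 to 1.69) and the carbonic anhydrase Car2 (log2 ratio 1.14, 0.88 to 1.41) were past 2-fold higher, and the channel Trpv4 (log2 ratio -1.01, -1.70 to -0.39) past 2-fold lower. The transport genes past 2-fold were 21.4% of their list in the higher and 7.14% in the lower direction, beside 3.20 and 8.26% of all genes. Slc14a1 was under 2-fold in 9 of 15 alternative settings (lowest 0.64) and Trpv4 in 5 (nearest to 0 at -0.73).

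Transcription factors of urothelial differentiation differed little as a list, with a median of -0.08. Of 17, 2 were at least 2-fold higher (11.8%, beside 3.20% of all genes) and 1 lower (5.88%, beside 8.26%). Hopx, a homeodomain protein without DNA binding, had 527 CPM against 111 CPM (log2 ratio 2.25, 2.16 to 2.34) and followed the bands at 36.0, 100.5, 208, 365 and 688 CPM. Pparg, the nuclear receptor that drives urothelial differentiation in culture, had 64.9 CPM against 25.5 CPM (log2 ratio 1.35, 1.11 to 1.58). Grhl1 (log2 ratio 0.95, 0.69 to 1.20) and Grhl3 (log2 ratio 0.77, 0.40 to 1.13) were higher by less than 2-fold. Gata3 (log2 ratio -0.08, -0.19 to 0.02) and Foxa1 (log2 ratio 0.07, -0.08 to 0.21), both long tied to uroplakin expression, were close to level, and Cebpa (log2 ratio -1.05, -1.47 to -0.65) was lower.

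Most Notch components were lower or level. Of 9 listed genes, 4 were at least 2-fold lower (44.4%, beside 8.26% of all genes) and none higher, with a median of -0.87. The receptor Notch1 had 89.2 CPM against 209 CPM (log2 ratio -1.23, -1.39 to -1.06) and the ligand Jag2 5.61 CPM against 34.1 CPM (log2 ratio -2.60, -3.31 to -1.98). The ligand Dll1 had 6 UMIs in the set and 161 outside. The target Hes1 differed less, at 1005 CPM against 1255 CPM (log2 ratio -0.32, -0.37 to -0.27), and Nrarp, another target, lay above 0 (log2 ratio 0.39, 0.22 to 0.55).

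Of 13 Wnt genes, 12 were below 0 and 4 at least 2-fold lower (30.8%, beside 8.26% of all genes). The exception was the Wnt target Axin2, with a log2 ratio of 0.85 and a range of 0.68 to 1.51 over 15 alternative settings. Wnt10a, a ligand, had 16 UMIs in the set and 855 outside (log2 ratio -3.59, -4.41 to -2.89), and Wls, which carries Wnt ligands to the surface, had 252 CPM against 470.0 CPM (log2 ratio -0.90, -1.001 to -0.80). EGF-family genes were divided: of 8, 3 were at least 2-fold higher and 1 lower. These were 37.5 and 12.5% of the list, beside 3.20 and 8.26% of all genes. The 3 were the ligands Areg (log2 ratio 1.44, 1.33 to 1.56), Ereg (log2 ratio 1.32, 1.01 to 1.62) and Btc (log2 ratio 1.06, 0.49 to 1.61). The receptor Egfr (log2 ratio -1.16, -1.55 to -0.79) was the lower gene. The ligand Hbegf (log2 ratio -0.42, -0.57 to -0.28) and the receptors Erbb2 (log2 ratio -0.11, -0.40 to 0.17) and Erbb3 (log2 ratio 0.48, 0.24 to 0.72) were within 2-fold. Btc was under 2-fold in 4 of 15 alternative settings (lowest 0.77) and Egfr in 3 (nearest to 0 at -0.87). The D medium held no added EGF.

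The immediate early list, which dissociation can induce, was not higher in the set: 15 of 16 genes lay below 0, the median was -0.60, and Fos had 335 CPM against 605 CPM. Most defining markers of other cell types were at or near 0 in the set. Of 6 fibroblast markers 3 had no UMI in the set, and only Dcn had at least 20 over D, with 33 UMIs in the set and 1201 outside. Of 6 leukocyte markers 3 had none, and Laptm5 had 83 UMIs in the set and 317 outside (log2 ratio 0.21, -0.16 to 0.56). Summed levels of leukocyte markers were 22.7 and 19.6 CPM, of endothelial markers 4.27 and 3.08 CPM, and smooth muscle and erythroid markers had none in the set.

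Doublets were checked with Scrublet, which called 0 cells and so gave no usable call. In the highest 5% of its score lay 22 of the 734 uroplakin-high cells (3.00%) and 5.60% of the remaining D cells. In the deepest 5% of cells lay 8.58% of the set and 4.37% of the others.

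Clustering the D cells without any uroplakin gene placed the set mainly in 1 cluster. Of 3 clusters, the smallest (660 cells, 13.5% of D) held 428 of the 734 cells (58.3%), and 64.8% of its cells were uroplakin-high (interval 61.1 to 68.5%). Its leading genes included Krt23, Ly6g6c, Sftpd and Phgr1. The largest cluster (2921 cells) held 305, or 10.4% of its cells. The third, led by Acta2, Cav1 and Htra1, held 1 of 1315.

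The uroplakin-high cells inside and outside that smallest cluster differed in other genes. Upk3a had 2319 CPM in the 428 cells inside and 965 CPM in the 306 outside, and Upk1a 1540 and 1331 CPM. Krt8 had 4185 and 1628 CPM and Krt18 2606 and 1027 CPM. Clu had 5195 and 1383 CPM, and Krt5 1409 and 2817 CPM. The clusters were made from these non-uroplakin genes, so their differences describe the split and only those of uroplakins were not used to make it.

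The level of Snx31 differed more by score than by cluster. It had 80.5 CPM in uroplakin-high cells inside the cluster, 59.4 CPM in those outside, and 9.72 CPM in the 232 other cells of the cluster. Krt23 differed more by cluster, with 50.2, 8.08 and 98.1 CPM in the same order, so it was higher in cluster cells below the score than in those above it. Ly6g6c had 107, 24.8 and 28.3 CPM. Krt8 had 4185, 1628 and 2801 CPM, Krt18 2606, 1027 and 1551 CPM, and Clu 5195, 1383 and 4292 CPM. Psca had 4649, 2723 and 4765 CPM, and Hopx 780, 234 and 537 CPM. Each of these was higher in cluster cells below the score than in uroplakin-high cells outside the cluster. The clusters were made from non-uroplakin genes such as these.

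Within the set, 487 cells held Upk3a and 247 did not. The cells with Upk3a were deeper, with a median of 4582 against 3408 UMIs, and scored higher, at a median of 43.3 against 25.1. Of the first, 62.6% lay in the smallest cluster and of the second 49.8%. Upk1a had 1378 CPM in the cells with Upk3a and 1633 CPM in those without, and a cell without Upk3a could enter the set only through the other score genes. Krt8 (0.22), Psca (0.12) and Mal (0.07) were close on the log2 scale, while Fabp5 was 180 against 70.7 CPM and Snx31 80.1 against 43.6 CPM. The part of depth in this split was not tested.

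The set was almost absent from P. Of 6818 kept P cells, 2 (0.0293%, interval 0.00355 to 0.106%) reached the score of the lowest uroplakin-high cell. A uroplakin UMI of any kind was found in 303 P cells, at a median of 1 per cell. Upk1a had 327 UMIs in P and Upk3a 4, or 0.0122 Upk3a UMIs per Upk1a UMI, below the 0.128 in the remaining D cells.

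The 303 P cells with a uroplakin UMI gave a reading in cells that the score did not use. Against the other 6515 P cells, 245 of 8937 genes with at least 100 UMIs in both libraries were at least 2-fold higher (2.74%). Of the 196 genes other than the score genes that were at least 2-fold higher in the D set, 145 could be measured in P and 75 of these were at least 2-fold higher there, which is 51.7% of the 145 and 30.6% of the 245. The median log2 ratio of the 145 in P was 1.06, beside 0.02 over all 8937. The P cells with a uroplakin UMI were deeper (median 4376 against 3378 UMIs) and lower in ribosomal protein UMIs (30.5 against 39.3%), and the part of this was not tested.

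Several lists lay on the same side in P. The cornified envelope list had a median of 1.36 in P beside 1.37 in D, simple keratins 0.78 and 1.64, and basal-layer genes -0.75 and -1.45. Tight junction genes had 0.84 and 0.54. On opposite sides lay immediate early genes (0.22 in P and -0.60 in D), retinoid genes (0.29 and -0.46) and urothelial transcription factors (0.45 and -0.08). The 13 transport genes counted in both had -0.05 in P and 0.17 in D. Cholesterol synthesis also lay on opposite sides: its median was -0.21 in P, with 3 of 15 genes above 0, and 1.08 in D. Among single genes, Snx31 (4.49, 1.36 to 8.07, from few UMIs), Phgr1 (4.99), Clu (3.83) and Mal (2.16) were higher in P cells with a uroplakin UMI, as log2 ratios, and Pparg (1.47) and Hopx (1.66) likewise.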

How the data were processed

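Droplet 3′ single-cell libraries of proliferative (P) and differentiated (D) organoids, 1 each, were analysed. Per the submitters' processing notes the authors used bcl2fastq 2.19.0 and Cell Ranger 3.0.2 with GRCm38 (mm10). The deposited matrices hold raw counts of UMIs per gene and barcode, not normalized. The sets of D cells held 3744794 UMIs (uroplakin-high) and 16560827 UMIs (remaining).

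The members and gene lists were chosen with earlier results of these data known, so they support nothing by themselves. UMIs were summed per part and expressed as CPM, so levels are relative to all RNA counted. Exact intervals were Poisson for a level, Clopper-Pearson for a share and, for a ratio, those of the conditional binomial. They cover counting error only. Genes were called at a 2-fold CPM ratio with at least 100 UMIs over kept D cells, and lists counted genes with at least 20. Genes could be named if they were in a list with at least 20 UMIs, or among the 25 largest or 15 smallest ratios (0.5 UMI added, Upk and mitochondrial genes left out). Leading genes of clusters were named outside this rule, after their values were seen.

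Cells were clustered with Seurat 5.3.0 (R 4.3.3) on 1994 of 2000 variable features, Upk genes removed, with 21 components and resolution 0.2. Other steps used Python 3.11.15, scipy 1.17.1 and scanpy 1.11.5 (Scrublet). The libraries shared 10 barcodes, 6 among kept cells and 0 of them uroplakin-high. Gene positions came from GENCODE M21 and promoter sequences from RefSeq. The ratio and its interval were run on simulated Poisson counts with known changes. These counts had no spread between cells, so that run says nothing about such spread in the data.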

Additional observations from a re-analysis of the deposited data

Results flagged for a closer look

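Barcodes that the filter left out of D also held uroplakins. Of 2079 left-out barcodes, 126 (6.06%, exact binomial 95% interval 5.07 to 7.17%) reached the score of the lowest uroplakin-high cell, against 4 of 1376 in P (0.291%). These 126 held a median of 4 uroplakin UMIs, 1144.5 UMIs and 610 genes, with 14.1% mitochondrial UMIs. The other left-out D barcodes had medians of 874 UMIs, 409 genes and 24.2% mitochondrial UMIs. Of the 126, 92 failed on genes and 89 on mitochondrial share, 55 of them on both. They were used in no comparison, and whether they are cells of the same kind was not tested.

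A pair of genes lay on opposite sides in the D set and in P cells with a uroplakin UMI, with both counting intervals away from 0. Fabp5 had a log2 ratio of 2.07 in D and -0.68 in P, and Fdps 1.60 and -0.54. With 1 library each, the difference between libraries was not tested.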

How the results depend on the processing

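With 17 alternatives, the number of genes at least 2-fold higher (201) was within 1.5 times of itself except with D cells lacking a uroplakin UMI as reference (511) and with genes of at least 20 UMIs (376) or at least 1 UMI (1594); the number lower (435) was so except with genes of at least 20 (971) or at least 1 UMI (4872). The share of the set in 1 cluster went from 58.3% to 64.3% with uroplakin genes kept among the features, and P cells past the score from 2 to 6 with over 500 genes and at most 20% mitochondrial UMIs. Reversed values were Reg1 at -1.69 with the top 10% of cells, and Lypd2 at 0.92 on thinned cells and 0.00 (0.002) with Upk1b left out of the score, from -1.03 with 5 UMIs in the set. Of 5445 single-gene values, 447 crossed 2-fold or 0 and 3 were the reversals above. Of 26 list medians none was reversed, and 20 of 389 values crossed 2-fold or 0 (the uroplakin median has none against cells without a uroplakin UMI). Scrublet called no cell, so its exclusion was not run; leaving out the highest 5% of its scores, chosen after seeing the data, gave 209 and 459 genes. The number of lists past 2-fold ranged from 6 to 11. No paired analysis was possible because each group held 1 library. Depth limits shares of low genes such as Upk2, Upk3b and Snx31, and a single library gives no spread between cultures.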

Other observations

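Mitochondrial and ribosomal shares went in opposite directions along the uroplakin score. The median mitochondrial share was 5.94% in D cells without uroplakin, 6.83 and 7.50% in the lower and upper other non-members, and 7.74 and 7.77% in the lower and upper uroplakin-high cells. The median ribosomal protein share was 22.9, 22.2, 21.1, 19.3 and 18.0% in the same order. In the set, 77 of 81 ribosomal protein genes lay below 0 (median log2 ratio -0.22, none past 2-fold) and 12 of 13 mitochondrial genes above 0 (median 0.16).

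Antigen presentation and interferon genes lay above 0 in all 12 genes counted (median log2 ratio 0.50, none past 2-fold), with H2-K1 at 337 against 224 CPM. Of all 11759 genes with at least 20 UMIs, 4685 lay above 0. Ifit3 (0.03) and Isg15 (0.20) were not stable, with lowest log2 ratios of -1.08 and -0.37 in alternative settings. Of 15 lysosome genes, 1 was at least 2-fold higher and 1 lower (6.67% each, beside 3.20 and 8.26% of all genes). These were the cathepsins Ctsh, with 763 against 313 CPM, and Ctsl, with 85.4 against 318 CPM. Ctsb (-0.01) and Ctsd (0.24) differed little on the log2 scale. In the glycosylation list Gcnt1, which branches core O-glycans, had 53 UMIs in the set and 65 outside (log2 ratio 1.85), and Gcnt3 62 and 119 (1.20). Among 9 retinoid genes, 7 lay below 0 and the list median was -0.46. The 2 above 0 were Rdh10, which oxidises retinol, at 216 against 102 CPM, and Aldh1a1 at 152 against 81.8 CPM. Crabp2 (log2 ratio -2.14) was lowest.

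The 2 P cells past the score held 18 UMIs of Upk1b, 4 of Upk1a and 4 of Upk3a, which is every Upk3a UMI of P, and their Sprr1a and Psca counts were 93 and 140 UMIs. Krt14 and Krt5 had 1 and 2 UMIs in them.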
